A study of Mus musculus with 16 samples.

Results

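Sustentacular cells are the supporting cells of the olfactory epithelium. They stand between the sensory neurons, reach the nasal surface with microvilli, and are known for enzymes that metabolise inhaled chemicals. They are simple epithelial cells in their keratins, and in mouse the transcription factor Sox2 and Notch signalling are known to help set and keep the fate of supporting cells. The genes described here are 8 that are listed as part of the identity of these cells, apart from their cytochromes P450: the keratins Krt8 and Krt18, the regulators Sox2, Notch2 and Hes1, the carbonyl reductase Cbr2, the actin-binding protein ermin (Ermn) and the gel-forming mucin Muc2. They were taken by name, with earlier results of these data known. All 8 of 8 were found among the 19505 genes measured. Each is represented by 1 probe set, the probe set of that symbol with the highest mean over all libraries.

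The values came from Affymetrix arrays of 16 libraries of sorted olfactory mucosa cells of S100a5-tauGFP mice on the C57BL/6 strain, of both sexes and 7 to 12 weeks old. A green fluorescent protein (GFP) reporter is tied in these mice to S100a5, a gene of olfactory sensory neurons whose level is known to follow odor-driven activity. Each of 24 mice stayed alone in a clean-air chamber for 40 h, with pulses of 10 s every 20 min after the first 26 h. The pulses carried isoamyl acetate and whiskey lactone together for odor mice, and filtered air for vehicle mice. The libraries made 4 groups of 4: odor titled GFP+, odor titled GFP-, vehicle titled GFP+ and vehicle titled GFP-. Each library came from a pool of 3 mice, and both fractions of a pool share the same mice. The sort was on GFP and not on a marker of sustentacular cells, and biotin-labelled cRNA for the arrays started from 50 to 100 ng of RNA.

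The fraction names need care. The title of each of the 16 samples names the opposite fraction to its tag for the cell type, so the fractions are called titled GFP+ and titled GFP- here, and every fraction difference below would change sign if the tags were right. S100a5 had 15.39, 15.11, 15.05 and 15.55 on the log2 scale in the titled GFP+ libraries of odor pools 1 to 4, against 16.04, 16.66, 16.55 and 16.48 in their titled GFP- libraries. It had 14.59, 14.91, 16.37 and 15.47 in the titled GFP+ libraries of vehicle pools 1 to 4, against 16.44, 16.35, 14.99 and 16.27 in their titled GFP- libraries. The gene of the reporter was therefore lower in titled GFP+, except in vehicle pool 3, where the order of the fractions was turned round. On the 14 arrays its difference was -1.16 ± 0.20, adjusted p = 0.000588 by limma in odor mice. Fraction differences of the members and counts of calls are therefore given both on all 16 arrays and on the 14 that remain without vehicle pool 3, a set chosen after the values were seen. Differences of single genes that are no members are those of the 14 arrays. Differences are on the deposited log2 scale, whose highest value of 19.4 is above what a 16-bit scanner gives, and are not stated as folds. Over 23 background probe sets of the array, the median per library lay between 5.34 and 6.01. Cbr2 and Muc2 were above that median in 16 of 16 libraries, Krt18 in 14, Ermn in 12, Sox2 in 11, Krt8 in 9, Notch2 in 6 and Hes1 in 0.

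The 8 genes fell into unlike patterns. Krt8, Krt18 and Sox2 were higher in titled GFP+ than in titled GFP- libraries of odor mice on all 16 arrays, and Notch2 joined them on the 14 arrays. On 16 arrays these 3 calls were lost with the pool of mice as a block (limma adjusted p = 0.161 each) and without any 1 of 7 of the 8 odor libraries. Calls over all 19505 genes fell there too, from 1359 to 2 with the block and to 2 or 3 in those 7 fits. On the 14 arrays the pool share of the spread was above its median over all genes for Cbr2 and Muc2, and their fraction share below its median. For Muc2 the pool spread lay mainly between the odor pools. Both shares of Ermn were above their medians over all genes, and Hes1 lay under the background median everywhere. With limma and Benjamini-Hochberg adjustment over all genes at a threshold of 0.05, 3 of 8 members were higher and 0 lower on 16 arrays, where 4.57% of all genes were higher and 2.39% lower. On 14 arrays 4 of 8 members were higher and 0 lower, where 8.59% of all genes were higher and 4.59% lower. The median difference of the 8 members was 1.00, against -0.08 over all genes. The 4 libraries of each fraction did not overlap for 4 members in odor mice, Krt8, Krt18, Sox2 and Notch2, a pattern that 8.9% of all genes showed in this direction. In sorted bulk libraries, fewer cells of a type and less RNA per cell cannot be told apart.

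In vehicle mice 0 of 8 members passed on 16 arrays, where limma called 0 of 19505 genes, while 2 members and 1912 genes had an unadjusted p under 0.05. On the 14 arrays 3 members, Krt8, Krt18 and Notch2, were higher in titled GFP+ and 0 lower, where 7.86% of all genes were higher and 3.32% lower, and the median difference of the 8 members was 0.99, against -0.10 over all genes. The vehicle result thus turned on pool 3, which holds 1 of the 4 libraries of each vehicle group. With it, the vehicle fractions overlapped for all 8 members, where 0.687% of all genes were higher in titled GFP+ with no overlap. Without it, the 3 libraries of each vehicle fraction did not overlap for 6 of 8 members, all but Cbr2 and Muc2, a pattern that 12.6% of all genes showed in this direction.

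**Figure D1:**
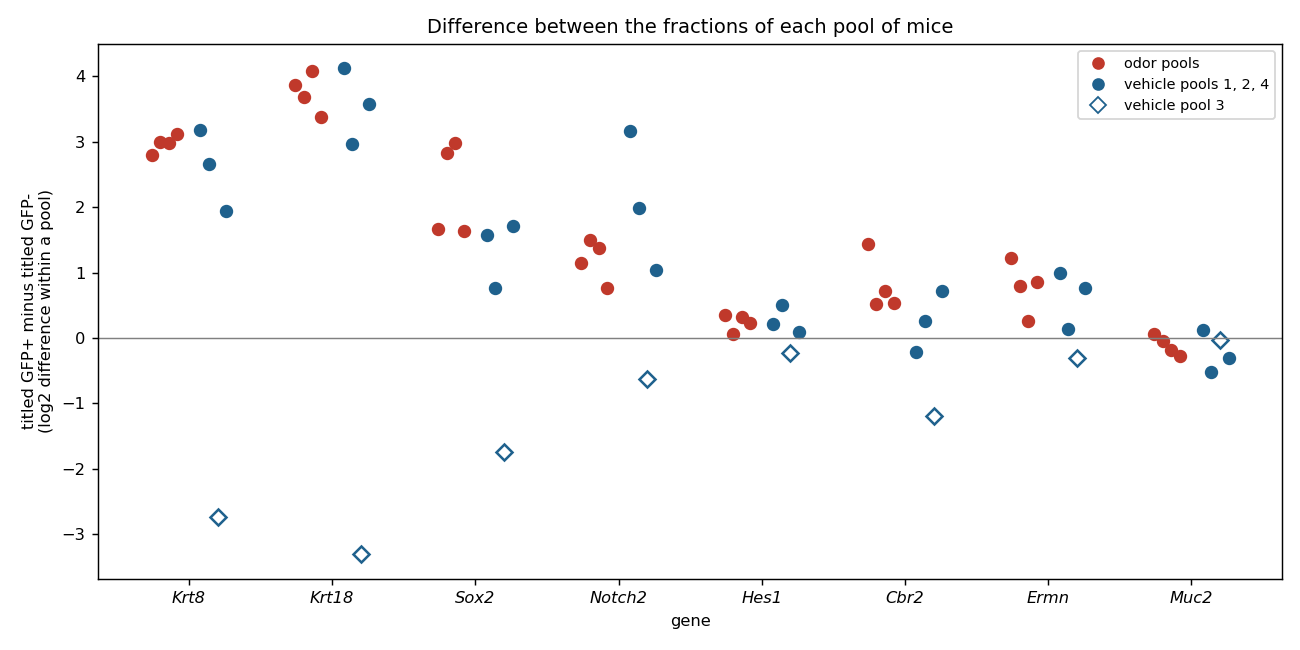
Difference between the titled GFP+ and the titled GFP- library of each pool (vertical axis, log2 scale) for the 8 genes, with odor pools in red, vehicle pools 1, 2 and 4 in blue and vehicle pool 3 as an open diamond. Krt8 and Krt18 differed by 1.94 to 4.12 in 7 of 8 pools and lay below 0 in vehicle pool 3, while Muc2 stayed between -0.53 and 0.12.

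Krt8 and Krt18 encode the type II and type I keratins that pair into the intermediate filaments of simple epithelia. They are neighbours on mouse chromosome 15, with starts 23.9 kb apart, and a pair of predicted loci between them. Their promoters, 250 bases before to 50 bases after the start, are shown because both genes followed the fraction together, and those of Sox2 and Notch2, on chromosome 3, because they differed in the same direction. The sequences are from RefSeq on assembly GRCm38.p6, which had an entry for 7 of the 8 members, all but Hes1. Krt8 is at chr15:102004293-102004592, minus strand, Krt18 at chr15:102027966-102028265, plus strand, Sox2 at chr3:34649745-34650044, plus strand and Notch2 at chr3:98013288-98013587, plus strand. Capitals mark 3 short motifs read on both strands: TATAA (reverse TTATA), the core of a TATA box, GGGCGG (reverse CCGCCC), a GC box, and TGGGAA (reverse TTCCCA), the core of sites known to bind Rbpj, the DNA-binding partner of Notch.
Krt8: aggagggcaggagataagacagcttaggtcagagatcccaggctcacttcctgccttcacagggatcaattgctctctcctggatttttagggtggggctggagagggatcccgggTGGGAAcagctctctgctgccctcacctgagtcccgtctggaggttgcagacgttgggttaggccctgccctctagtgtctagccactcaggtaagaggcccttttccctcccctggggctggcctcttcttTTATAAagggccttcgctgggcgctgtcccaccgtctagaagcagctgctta
Krt18: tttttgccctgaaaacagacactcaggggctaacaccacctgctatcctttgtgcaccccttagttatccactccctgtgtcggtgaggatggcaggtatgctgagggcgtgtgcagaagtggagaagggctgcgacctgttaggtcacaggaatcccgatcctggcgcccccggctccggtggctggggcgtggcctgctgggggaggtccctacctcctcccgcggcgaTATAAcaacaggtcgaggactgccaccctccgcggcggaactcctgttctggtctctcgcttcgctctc
Sox2: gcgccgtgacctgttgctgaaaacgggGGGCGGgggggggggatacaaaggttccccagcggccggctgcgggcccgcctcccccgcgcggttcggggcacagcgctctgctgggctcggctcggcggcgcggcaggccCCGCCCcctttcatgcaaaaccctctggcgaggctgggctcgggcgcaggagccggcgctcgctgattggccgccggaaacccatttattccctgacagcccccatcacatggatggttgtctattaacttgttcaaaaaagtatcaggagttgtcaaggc
Notch2: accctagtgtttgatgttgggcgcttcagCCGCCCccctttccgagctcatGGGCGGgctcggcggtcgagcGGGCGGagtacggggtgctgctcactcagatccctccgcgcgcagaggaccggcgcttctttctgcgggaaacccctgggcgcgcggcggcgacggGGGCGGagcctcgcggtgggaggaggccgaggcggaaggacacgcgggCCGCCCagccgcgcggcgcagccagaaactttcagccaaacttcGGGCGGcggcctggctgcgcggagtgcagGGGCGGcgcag
TATAA stood in the promoters of Krt8, Krt18 and Muc2, where 24.9% of 32851 promoters of the same length hold it, and in Krt8 its matches on both strands overlap. Counted from the annotated start, the matches began at -2 and -1 in Krt8, so they span the start itself. They began at -19 in Krt18 and at -174 and -28 in Muc2. GGGCGG stood in those of Sox2, Notch2 and Muc2, against 35.7% of all promoters, and TGGGAA in those of Krt8, Cbr2 and Ermn, against 25.6%. Each motif was thus in 3 of 7 promoters. The G+C content of the shown windows was 58% for Krt8, 61.3% for Krt18, 66.3% for Sox2 and 73% for Notch2. A match of letters is a description and no evidence of binding.

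Both keratins were high in every titled GFP+ library but that of vehicle pool 3. Krt18 had 10.90, 10.76, 9.64 and 9.22 in the titled GFP+ libraries of odor pools 1 to 4, against 7.03, 7.08, 5.56 and 5.84 in their titled GFP- libraries. In vehicle pools 1 to 4 it had 10.61, 9.79, 6.54 and 10.07 in titled GFP+, against 6.49, 6.82, 9.84 and 6.49 in titled GFP-. The odor groups stood apart with no overlap, and in vehicle pool 3 the titled GFP- library had the level of the titled GFP+ libraries of the other pools. The odor difference of Krt18 was 3.75 ± 0.86 (limma SE, 4 libraries a group, adjusted p = 0.0286), with an SE of 0.40 and adjusted p = 6.12e-06 on 14 arrays. Its vehicle difference was 1.84 ± 0.86 on 16 arrays (limma adjusted p = 0.506) and 3.56 ± 0.46 on 14 arrays (limma adjusted p = 5.58e-05).

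Krt8, the partner of Krt18, did the same at a smaller difference. It had 8.91, 8.49, 8.05 and 7.81 in titled GFP+ libraries of odor pools 1 to 4, against 6.11, 5.49, 5.07 and 4.69 in titled GFP-. Vehicle pools 1 to 4 had 8.44, 7.93, 5.25 and 7.21 in titled GFP+, against 5.26, 5.27, 7.997 and 5.27 in titled GFP-. The odor groups did not overlap, and the 4 low vehicle values were nearly alike and below the lowest background median. Its odor difference was 2.98 ± 0.67 on 16 arrays (limma adjusted p = 0.0286), with an SE of 0.31 and adjusted p = 5.83e-06 on 14. Its vehicle difference was 1.26 ± 0.67 on 16 arrays (limma adjusted p = 0.558) and 2.59 ± 0.36 on 14 (limma adjusted p = 0.000118). Within pools the odor differences of Krt8 were 2.80, 2.99, 2.99 and 3.12, and those of Krt18 were 3.87, 3.68, 4.08 and 3.38. The within-pool differences of Krt8 in odor mice therefore ran only from 2.80 to 3.12, while its level within either fraction differed by more than 1 between pools. In titled GFP- libraries of odor mice Krt8 was above the background median in 1 of 4, so these differences were mostly taken against signals near background.

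With vehicle pool 3 in the fit, the calls of the keratins and of Sox2 in odor mice depended on the model and on single libraries. On the 14 arrays they held in every fit run. With the pool as a block on all 16 arrays, 0 of 8 members passed in odor mice, where 0.0103% of all genes passed. With the block on the 14 arrays 6 of 8 passed there, Ermn and Cbr2 besides the 4 named above, where 8.77% of all genes were higher, and 4 of 8 passed in vehicle mice, where 8.2% were. On the 8 odor arrays alone, an alternative added after seeing the data, 4 of 8 passed without the block and 6 with it, where 8.05% and 8.42% of all genes were higher. When 1 odor library was left out of the 16 arrays, the 3 calls held only without titled GFP+ replicate 4. That fit called 1212 of 19505 genes, and every other fit of this kind called at most 3. On 14 arrays Krt8, Krt18 and Sox2 passed in 14 of 14 such fits and Notch2 in 13, with an adjusted p of 0.0522 without odor titled GFP+ replicate 2. Leaving 1 vehicle library out of the 16 also made calls: Notch2 passed in odor mice without vehicle titled GFP+ replicate 1 or 3, and Krt18 and Notch2 passed in vehicle mice without vehicle titled GFP+ replicate 3. Over all genes those fits called 1546 and 2184 in odor mice, and the last of them 1163 in vehicle mice.

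**Figure D2:**
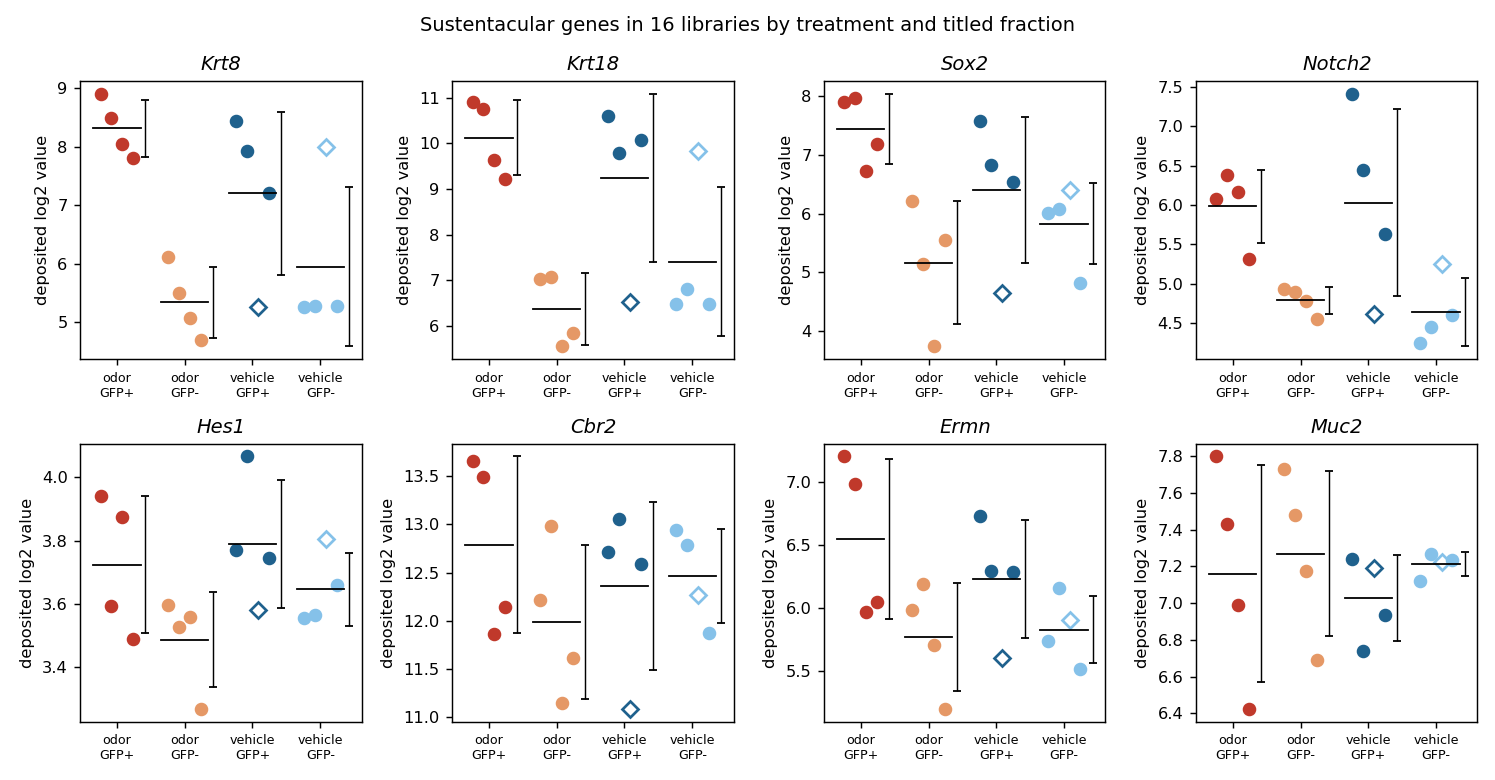
Deposited log2 value (vertical axes, each on its own range) of the 8 genes in every library of the odor GFP+, odor GFP-, vehicle GFP+ and vehicle GFP- titled groups. Points are libraries in the order of pools 1 to 4, open diamonds are vehicle pool 3, lines are means and error bars are SD (n = 4). The odor groups do not overlap for Krt8, Krt18, Sox2 and Notch2, and overlap for the other 4 genes.

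Other genes of simple epithelia showed the same direction. Of 14 simple epithelial keratin and junction genes, 8 were higher and 0 lower in titled GFP+ libraries of odor mice on 14 arrays (6 higher on 16 arrays), with a median difference of 0.49 against -0.08 over all genes. Among all genes 8.59% were higher on 14 arrays and 4.57% on 16. Cdh1 (E-cadherin, a cell adhesion protein) differed by 4.09 ± 0.45, adjusted p = 9.61e-06 by limma, Cldn4 (a claudin of tight junctions) by 1.36 ± 0.20, adjusted p = 0.000156, and Cldn7 by 1.45 ± 0.24, adjusted p = 0.00046. In vehicle mice 5 of the 14 were higher on 14 arrays, where 7.86% of all genes were. By contrast 0 of 7 basal keratin and horizontal basal cell genes passed in either treatment (1, in odor mice, with the pool as a block on 14 arrays), with odor differences of 0.80 ± 0.31, adjusted p = 0.119 for Itga6 and -0.17 ± 0.16, adjusted p = 0.586 for Trp63, the transcription factor of basal cells. The mean over those 7 genes was 4.28 to 4.46 in titled GFP+ and 4.19 to 4.39 in titled GFP- libraries of odor mice, below every library's background median.

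Sox2, a transcription factor of supporting and progenitor cells, was higher in titled GFP+ libraries of odor mice. It had 7.89, 7.98, 6.72 and 7.19 in titled GFP+ libraries of odor pools 1 to 4, against 6.22, 5.14, 3.74 and 5.55 in titled GFP-. In vehicle pools 1 to 4 it had 7.58, 6.83, 4.65 and 6.54 in titled GFP+, against 6.01, 6.07, 6.39 and 4.82 in titled GFP-. The odor groups did not overlap, and the titled GFP- library of odor pool 3 had the lowest of all 16 values. The odor difference was 2.28 ± 0.59 on 16 arrays (limma adjusted p = 0.0361), with adjusted p = 0.00265 on 14. The vehicle difference was 0.58 ± 0.59 on 16 arrays (limma adjusted p = 0.787) and 1.35 ± 0.53 on 14 (limma adjusted p = 0.137). With the pool as a block it passed on the 14 arrays (limma adjusted p = 0.0162) and not on the 16. Of 13 other Sox genes, Sox11 and Sox9 were higher in odor mice on 14 arrays, by 2.84 ± 0.20, adjusted p = 6.22e-08 and 3.83 ± 0.35, adjusted p = 1.42e-06 by limma, and 0 were lower, with the same 2 of 13 counted on 16 arrays. Sox11 is known from immature neurons and Sox9 from Bowman glands, so both are also markers of other cells of the mucosa. In vehicle mice 5 of the 13 were higher on 14 arrays. The shares of all genes that were higher were 8.59% in odor and 7.86% in vehicle mice on 14 arrays, and 4.57% in odor mice on 16.

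Notch2 encodes a receptor through which neighbouring cells instruct each other's fate. It had 6.07, 6.39, 6.16 and 5.32 in titled GFP+ libraries of odor pools 1 to 4, against 4.93, 4.90, 4.78 and 4.55 in titled GFP-. Vehicle pools 1 to 4 had 7.42, 6.45, 4.62 and 5.63 in titled GFP+, against 4.24, 4.46, 5.25 and 4.60 in titled GFP-. All 8 titled GFP- values and the titled GFP+ values of odor pool 4 and vehicle pool 3 lay below the lowest background median of 5.34. The odor difference was 1.20 ± 0.44 on 16 arrays (limma adjusted p = 0.114), with an SE of 0.30 and adjusted p = 0.0137 on 14. The vehicle difference was 2.07 ± 0.35 on 14 arrays (limma adjusted p = 0.000674), and 1.39 ± 0.44 on 16 (limma adjusted p = 0.478). Its highest value, 7.42, was in vehicle pool 1, where the fractions differed by 3.17.

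Hes1, a repressor that Notch signalling is known to induce, lay below the background median in every library. Its values ran from 3.49 to 3.94 in titled GFP+ and from 3.27 to 3.60 in titled GFP- libraries of odor mice, and from 3.58 to 4.07 in titled GFP+ and from 3.56 to 3.81 in titled GFP- libraries of vehicle mice. The groups overlapped in both treatments on 16 arrays. The odor difference was 0.24 ± 0.14 on 16 arrays (limma adjusted p = 0.362), with adjusted p = 0.351 on 14. The vehicle difference was 0.14 ± 0.14 on 16 arrays (limma adjusted p = 0.776) and 0.27 ± 0.17 on 14 (limma adjusted p = 0.384). Within pools the titled GFP+ library was higher by 0.07 to 0.50 in every pool but vehicle pool 3. No difference passed the test at this low signal, which says nothing about the gene's level in the cells.

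The rest of the Notch pathway had a few calls, in both directions. Of 31 measured pathway genes other than Notch2 and Hes1, 4 were higher and 2 lower in titled GFP+ libraries of odor mice on 14 arrays, where 8.59% of all genes were higher and 4.59% lower, with a median difference of -0.10 against -0.08 over all genes. Mfng and Lfng, glycosyltransferases that modify Notch receptors, were higher by 2.40 ± 0.23, adjusted p = 2.59e-06 and 2.15 ± 0.26, adjusted p = 2.26e-05 by limma. Hes6, a Hes1 relative known from neuronal precursors, was higher by 1.36 ± 0.22, adjusted p = 0.000369, and Dll1, a ligand, by 1.16 ± 0.32, adjusted p = 0.0224. Psen2, a subunit of the protease that releases the active receptor fragment, differed by -0.58 ± 0.13, adjusted p = 0.00461, and Heyl, a target gene, by -0.56 ± 0.14, adjusted p = 0.0135. In vehicle mice on 14 arrays Mfng and Lfng were higher, by 2.17 and 2.62, while Heyl and the ligand gene Jag1 were lower, with differences of -0.55 and -0.93. Over all genes 7.86% were higher there and 3.32% lower. With the pool as a block on 14 arrays the vehicle counts were 5 higher and 3 lower. Of all 19505 genes 1599 (8.2%) were higher in that fit and 715 lower. On 16 arrays 3 of the 31 were higher and 1 lower in odor mice, where 4.57% of all genes were higher and 2.39% lower. In vehicle mice 0 of the 31 and 0 of all genes passed.

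Cbr2, a carbonyl reductase that reduces aldehydes and ketones, was well above background in every library and split by pool. It had 13.66, 13.50, 11.86 and 12.15 in titled GFP+ libraries of odor pools 1 to 4, against 12.22, 12.98, 11.14 and 11.61 in titled GFP-. In vehicle pools 1 to 4 it had 12.72, 13.05, 11.08 and 12.59 in titled GFP+, against 12.94, 12.79, 12.27 and 11.87 in titled GFP-. The fractions overlapped in both treatments, and in odor mice both libraries of pools 1 and 2 were higher than both libraries of pools 3 and 4. The odor difference was 0.80 ± 0.50 (limma adjusted p = 0.389), and passed on 14 arrays only with the pool as a block, with an SE of 0.20 and adjusted p = 0.025. The vehicle difference was -0.11 ± 0.50 on 16 arrays and 0.25 ± 0.50 on 14 (limma adjusted p = 0.964 and 0.819), of opposite sign. Of 4 other carbonyl reductase genes 0 passed, with a median odor difference of -0.18, and Cbr1 had -0.35 ± 0.20, adjusted p = 0.296 by limma on 14 arrays.

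Cbr2 can be set beside the xenobiotic enzymes for which sustentacular cells are best known. Of 8 measured sustentacular genes outside the 8 members, 4 were higher and 0 lower in titled GFP+ libraries of odor mice on 14 arrays, with a median difference of 1.27, and 0 passed on 16 arrays. Higher genes made up 8.59% of all genes on 14 arrays and 4.57% on 16. Cyp2a5 differed by 2.08 ± 0.41, adjusted p = 0.00208 by limma, Cyp1a2 by 1.97 ± 0.44, adjusted p = 0.00553, Cyp2g1 by 1.52 ± 0.34, adjusted p = 0.00618 and Cyp2f2 by 1.71 ± 0.43, adjusted p = 0.0125, all cytochromes P450. In vehicle mice on 14 arrays Cyp2a5 and Cyp1a2 were higher, by 1.57 and 1.82, where 7.86% of all genes were higher. With the pool as a block on 14 arrays 5 of 8 were higher in odor mice and 4 in vehicle mice, where 8.77% and 8.2% of all genes were. The mean over these 8 genes was 10.3 to 11.7 in titled GFP+ and 8.98 to 10.4 in titled GFP- libraries of odor mice, so it was well above background in both fractions, as Cbr2 was.

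Ermn encodes ermin, an actin-binding protein known from oligodendrocytes. It had 7.20, 6.98, 5.97 and 6.05 in titled GFP+ libraries of odor pools 1 to 4, against 5.98, 6.20, 5.70 and 5.20 in titled GFP-. Vehicle pools 1 to 4 had 6.73, 6.30, 5.60 and 6.29 in titled GFP+, against 5.74, 6.16, 5.90 and 5.52 in titled GFP-. Every odor pool was higher in its titled GFP+ library, yet the groups overlapped, and pools 1 and 2 were higher than pools 3 and 4 in both fractions. The odor difference was 0.78 ± 0.31 (limma adjusted p = 0.146 on 16 arrays and 0.0966 on 14). It passed on 14 arrays with the pool as a block, with an SE of 0.19 and adjusted p = 0.0227, and in the fits without odor titled GFP+ replicate 3 (adjusted p = 0.0406) or 4 (adjusted p = 0.0473). The vehicle difference was 0.40 ± 0.31 on 16 arrays (limma adjusted p = 0.705) and 0.63 ± 0.33 on 14 (limma adjusted p = 0.284). Of 5 genes of the ezrin, radixin and moesin proteins and partners, which tie actin to the membrane of microvilli, 2 were higher in odor mice on 14 arrays and 2 on 16. These were Rdx, by 3.36 ± 0.40, adjusted p = 2.38e-05, and Ezr, by 2.64 ± 0.38, adjusted p = 0.000127 by limma, and Msn had 0.50 ± 0.26, adjusted p = 0.258. Over all genes 8.59% were higher in odor mice on 14 arrays and 4.57% on 16.

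Muc2, a gel-forming mucin best known from intestinal goblet cells, had no fraction difference past the test in any setting run. It had 7.80, 7.43, 6.99 and 6.42 in titled GFP+ libraries of odor pools 1 to 4, against 7.73, 7.48, 7.17 and 6.69 in titled GFP-. In vehicle pools 1 to 4 it had 7.24, 6.74, 7.19 and 6.93 in titled GFP+, against 7.12, 7.27, 7.23 and 7.24 in titled GFP-. In odor mice both fractions of a pool had nearly the same value, and the pools spread from 6.56 to 7.76 in their means. In vehicle mice the pool means lay closer, from 7.00 to 7.21. There the fractions differed by 0.12, -0.53, -0.04 and -0.30 in pools 1 to 4. The wider spread of the odor pool means was not tested. Pool means also fell in order from odor pool 1 to 4 for Krt8, Krt18 and Ermn, but not for the other members. The odor difference was -0.11 ± 0.26 on 16 arrays (limma adjusted p = 0.864), with adjusted p = 0.864 on 14. The vehicle difference was -0.18 ± 0.26 on 16 arrays (limma adjusted p = 0.854) and -0.23 ± 0.31 on 14 (limma adjusted p = 0.717). Of 7 measured other mucins, the membrane mucins Muc1 and Muc20 were higher in titled GFP+ libraries of odor mice on 14 arrays, by 3.18 ± 0.28, adjusted p = 8.61e-07 and 3.46 ± 0.34, adjusted p = 3.28e-06 by limma, and the same pair was higher in vehicle mice. On 16 arrays 2 of the 7 were higher in odor mice. For these counts and the next, 8.59% of all genes were higher in odor mice on 14 arrays and 4.57% on 16. In vehicle mice it was 7.86% on 14 arrays. Of 8 goblet and secretory cell genes 1, Agr2, was higher, by 0.96 ± 0.24, adjusted p = 0.0134, and the mean over the 8 lay between 3.84 and 4.14 in all odor libraries, below background.

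**Figure D3:**
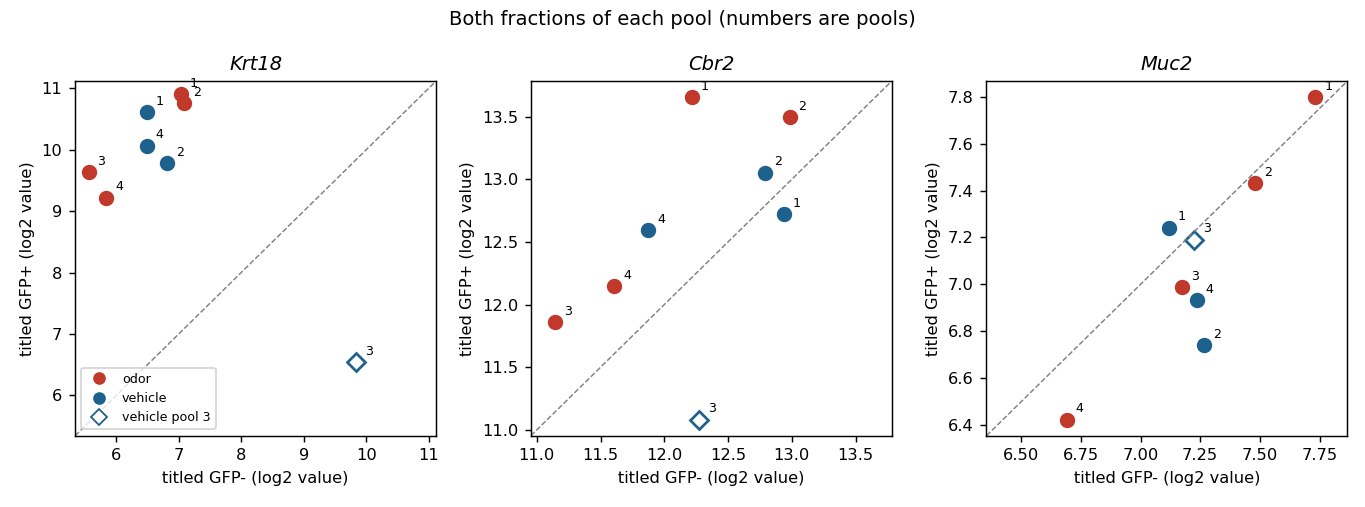
Level in the titled GFP+ library (vertical axis, log2) against the titled GFP- library (horizontal axis, log2) of the same pool for Krt18, Cbr2 and Muc2, with pool numbers beside the points and the dashed line where both fractions are equal. Krt18 lies above the line in 7 of 8 pools, Muc2 lies near the line, with odor pools 1 to 4 spread along it from 7.76 to 6.56 in their means, and Cbr2 is spread along it too.

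How much of each gene's spread lay between fractions and how much between pools was read from a partition of its sum of squares on the 14 arrays. The fraction took 91.4% for Krt18, 90.8% for Krt8, 79.4% for Notch2 and 68.8% for Sox2, against a median of 21.5% over all genes. The pool of mice took 84.6% for Muc2 and 68.7% for Cbr2, against a median of 32.6%. For Muc2 the pool means ran from 6.56 to 7.76 in odor mice and only from 7.00 to 7.18 in vehicle pools 1, 2 and 4. Ermn had 46.3% for the fraction and 42.6% for the pool, and Hes1, at background, had 40% and 38.3%. Of all genes 98.1% had a smaller fraction share than Krt18, and 99.6% had a smaller pool share than Muc2. The treatment took 9.1% for Hes1 and at most 3.7% for each of the other 7 genes. These shares describe the 14 libraries and carry no test. Pools outnumber fractions and the shares are not scaled for that. The pool share and the fraction share of a gene are therefore not directly comparable, and each is best read against its median over all genes.

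**Figure D4:**
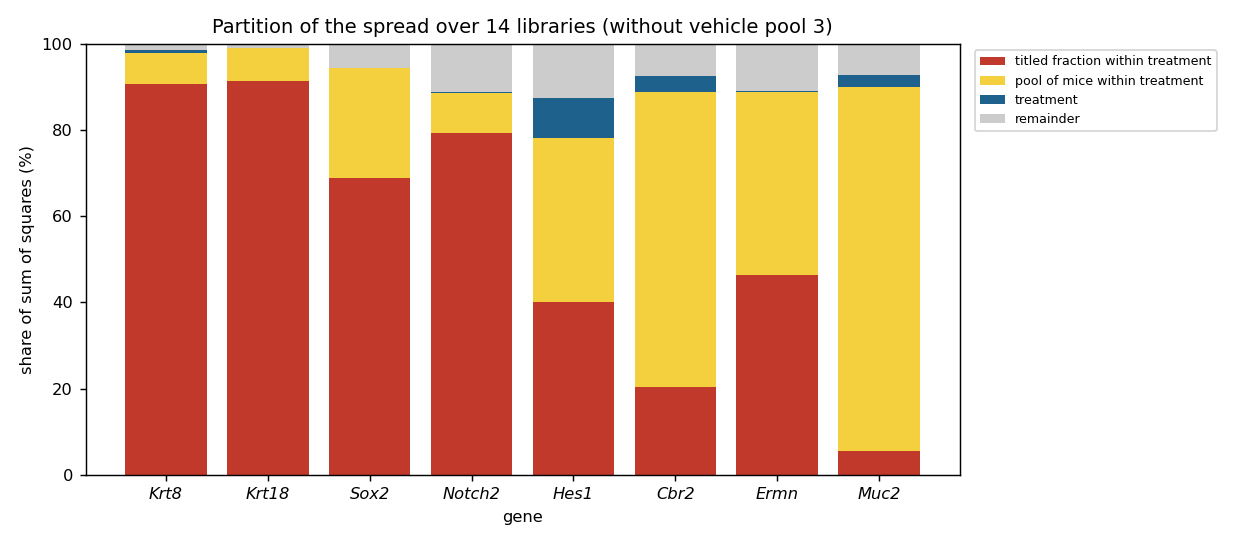
Share of each gene's sum of squares (vertical axis, percent, stacked to 100) that lay between titled fractions, between pools of mice within a treatment, between treatments, and in the remainder, on the 14 libraries without vehicle pool 3. The fraction takes most for Krt8, Krt18, Sox2 and Notch2, and the pool takes most for Cbr2 and Muc2, for Muc2 mainly between odor pools. The shares are not scaled for the numbers of pools and fractions.

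No member passed the test of odor against vehicle in either titled fraction. On 16 arrays limma called 0 of 8 members in titled GFP+, where it called 0 of 19505 genes and 908 had an unadjusted p under 0.05, and 0 of 8 in titled GFP-, where it called 2 genes (0.0103%). On 14 arrays it called 7 genes (0.0359%) in titled GFP+ and 5 (0.0256%) in titled GFP-, with no member among them, and 0 members had an unadjusted p under 0.05 in these 4 comparisons. In titled GFP+ libraries odor minus vehicle on 16 and 14 arrays was 1.11 ± 0.67 and 0.46 ± 0.34 for Krt8. It was 0.88 ± 0.86 and -0.02 ± 0.43 for Krt18, and 1.05 ± 0.59 and 0.46 ± 0.50 for Sox2. The positive values of these 3 genes on 16 arrays were thus smaller or near 0 without vehicle pool 3. Notch2 had -0.05 ± 0.44 and -0.52 ± 0.33, and the other 4 genes lay between -0.07 and 0.43 on 16 arrays. In titled GFP- libraries the differences ran from -1.03 for Krt18 to 0.15 for Notch2 on 16 arrays, and from -0.55 for Cbr2 to 0.35 for Notch2 on 14. The standard errors of 0.43 for Krt18 and 0.34 for Krt8 on 14 arrays leave room for differences of some size, so these tests do not show that odor left the genes alike.

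The fraction differences of odor and vehicle mice were also set against each other, with 0 of 8 members past the test on either set of arrays, where limma called 1 gene (0.00513%) on 16 arrays and 2 (0.0103%) on 14. Krt18 had 1.91 ± 1.21 on 16 arrays and 0.20 ± 0.61 on 14. Krt8 had 1.72 ± 0.94 and 0.38 ± 0.48, and Sox2 had 1.71 ± 0.84 and 0.93 ± 0.70. Notch2 ran the other way, with -0.19 ± 0.62 and -0.87 ± 0.46. The adjusted p was at least 0.999 for every member on 16 arrays, so calls made in odor mice and missed in vehicle mice are not shown to differ between the treatments.

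Markers of other cells moved with the fraction as well. In titled GFP+ libraries of odor mice on 14 arrays, 7 of 7 myeloid, 5 of 5 lymphoid, 6 of 6 microvillar and ionocyte-like, 6 of 7 globose basal and progenitor, 3 of 6 immature neuron and 3 of 5 Bowman gland genes were higher. The mean over the myeloid genes was 10.4 to 12.9 in titled GFP+ and 5.26 to 6.95 in titled GFP- libraries of odor mice, and that over the microvillar genes was 7.59 to 8.95 in titled GFP+ and 4.99 to 5.45 in titled GFP-. For the lymphoid genes it was 5.65 to 7.82 in titled GFP+ and 4.06 to 4.33 in titled GFP-, and for the globose basal genes 6.56 to 7.47 in titled GFP+ and 4.82 to 5.44 in titled GFP-. S100a9, a calcium-binding protein of neutrophils, differed by 7.84 ± 0.59, adjusted p = 1.72e-07 by limma, Trpm5, a channel of microvillar cells, by 3.28 ± 0.27, adjusted p = 4.04e-07, Kit, a receptor of progenitors, by 3.61 ± 0.36, adjusted p = 2.93e-06, and Gng8, a G protein subunit of immature neurons, by 4.64 ± 0.26, adjusted p = 9.36e-09. Ltf, the secreted lactoferrin counted in the Bowman gland list, differed by 6.35 ± 0.76, adjusted p = 2.28e-05 by limma. Which cells its signal came from was not tested. On 16 arrays the counts in odor mice were 6 of 7 myeloid, 2 of 5 lymphoid, 6 of 6 microvillar, 5 of 7 globose basal, 3 of 6 immature neuron and 2 of 5 Bowman gland genes higher, and 1 of 4 reporter and activity genes lower. In vehicle mice 0 genes of these lists passed on 16 arrays, while the same 7 of 7 myeloid, 5 of 5 lymphoid and 6 of 6 microvillar genes were higher on 14. The remaining lists held 0 or 1 call each, beside 8.59% of all genes higher and 4.59% lower, apart from the reporter and activity genes. Of 8 mature neuron genes 1, Ano2, was lower, with a difference of -0.51 ± 0.12, adjusted p = 0.00869, as were 4 of 4 reporter and activity genes. Of 5 ciliated cell genes 1, Ccdc113, was lower (-0.87 ± 0.23, adjusted p = 0.0187), of 6 fibroblast and endothelial genes 1, Dcn, was higher (1.31 ± 0.41, adjusted p = 0.0472), and of 4 ensheathing glia genes 0 passed. Several of the cells behind these lists also express the members: Krt8 and Krt18 are known from microvillar and Bowman gland cells, and Sox2 from basal cells. The part of these cells in the members' differences was not tested.

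The genes whose levels ran most like each member were named by Pearson's r over the 16 libraries, which share their pools and the split by fraction. Krt8 was nearest to Trpm5 (r = 0.987), Cdh1 (0.981) and Ezr (0.980), and Krt18 to Cdh1 (0.992), Tmem176b (0.990) and Clu (0.989). Sox2 was nearest to Qdpr (0.934), Nupr1 (0.933) and Sp8 (0.920), and Notch2 to Cldn1 (0.970), Ppp1r18 (0.963) and Ptpn7 (0.958). Cbr2 was nearest to Pon1 (0.920), Gstm1 (0.920) and Atp6v1b1 (0.900), of which Gstm1 encodes a glutathione transferase, and Ermn to Vwa5a (0.916), Tgif1 (0.907) and Fcgr4 (0.906). Muc2 was nearest to Ppp1cb (0.843), Hat1 (0.816) and Dtwd2 (0.801), and Hes1 to Tnfaip6 (0.851), Lmnb1 (0.838) and Runx3 (0.835). The nearest genes thus differed from member to member, with Cdh1 alone shared, by the keratins. To the mean of the 8 standardised members the 10 nearest genes were Sult1c1 (0.960), Tgif1, Tmem63a, Fcgr4, Abca13, Cyp2g1 (0.942), Cyp2a5 (0.940), Msra, Sun2 and Pam (0.939), in falling order of r. Among them Fcgr4, the fourth by r, encodes an Fc receptor of myeloid cells, and Cyp2g1 and Cyp2a5 are sustentacular cytochromes P450. Of the genes nearest to single members, Fcgr4, Ptpn7 (a leukocyte phosphatase) and Runx3 (a transcription factor of lymphocytes) are known from blood-derived cells. Their signals were low: 2.67 to 5.42 for Fcgr4, 3.37 to 6.03 for Ptpn7 and 2.87 to 4.49 for Runx3. Most of these values lay below the lowest background median of 5.34, as did all values of Hes1 and of Tnfaip6. So did most values of Vwa5a (2.90 to 5.58), near Ermn, and of Sp8 (4.12 to 5.90), near Sox2. These likenesses thus rest on signals near background.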

How the data were processed

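The authors deposited 1 table of log2-scale values for 28846 probe sets, for which the submitters' processing notes name Affymetrix Expression Console; its version and settings and the genome build were not given in the sources used here. Array medians ranged from 6.13 to 6.45. Precision is limited by the number of arrays. Of the probe sets 6640 were controls, and 19572 with 1 symbol gave 19505 genes. Groups followed the titles. Differences were fitted with limma 3.58.1 in R 4.3.3 (lmFit, eBayes, two-sided, a mean for each of 4 groups, adjustment over all genes) and tested on simulated data. Same-numbered fractions come from the same mice; deviations of odor pools correlated by 0.127 to 0.253, and those of vehicle pools 1 to 4 by -0.022, 0.287, -0.754 and 0.0375. Alternatives were the pool as a block, centring, quantile normalization, probe set means, a filter on dim genes, another variance model and libraries left out; the 8 odor arrays alone were added after seeing the data. The members and the lists (172 genes, 157 measured) were chosen with earlier results of these data known. The text names the members, S100a5, up to 3 genes of each list by smallest p, and the genes of highest r; Cyp2f2, Psen2, Heyl, Dll1 and Jag1 were added after their values were seen.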

Additional observations from a re-analysis of the deposited data

Results flagged for a closer look

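The values flagged by Dixon's test were both in the titled GFP- library of vehicle pool 3. The test sets the gap to the nearest value against the range of the group. Krt8 had 7.997 there, against 5.26, 5.27 and 5.27 in the titled GFP- libraries of vehicle pools 1, 2 and 4. Krt18 had 9.84 there, against 6.49, 6.82 and 6.49 in those of vehicle pools 1, 2 and 4. Both ratios of gap to range exceeded Dixon's critical value at the 95% level for groups of 4. Of the 32 groups of 4 examined, chance would mark about 1 in 20. In the titled GFP+ library of the same pool Krt8 had 5.25 and Krt18 had 6.54. The titled GFP+ values of Krt18 in vehicle pools 1, 2 and 4 were 10.61, 9.79 and 10.07. In log2 units that gap was larger than both flagged ones, though it was not flagged.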

How the results depend on the processing

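Without vehicle pool 3, the count of members past the threshold in the vehicle fraction comparison was 3, and it stayed 3 with centring, quantile normalization, probe set means or a trended robust variance, where all 16 arrays gave 0. With dim genes left out it was 2 on these 14 arrays, since the filter removes Notch2 and Hes1, which then have no value. With the pool as a block the odor count was 0 on 16 arrays (Krt18 adjusted p = 0.161) and 6 on 14 (Krt18 adjusted p = 1.28e-06), the vehicle count was 4 on 14, and the 8 odor arrays alone gave 4 without and 6 with the block. Leaving out 1 library gave 0 to 5 members in odor mice and 0 to 3 in vehicle mice. Over all genes, the odor comparison had 1359 calls on 16 arrays and 2570 on 14, and the vehicle comparison 0 and 2180; leaving out 1 library gave 2 to 2184 odor calls on 16 arrays and 2043 to 2609 on 14, and 896 came with a trended robust variance. Centring each array moved the odor median of all genes to -0.24 and the odor calls to 788 higher and 942 lower, against 892 and 467. On 16 arrays Sox2 had an adjusted p of 0.0507 with the trended variance.

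Signs turned only for differences that had not passed. On 14 arrays the vehicle fraction difference of Cbr2 was 0.25 (0.11 centred, 0.30 quantile), and odor minus vehicle was -0.025 for Krt18 in titled GFP+ (-0.012 centred, -0.038 quantile) and 0.075 for Krt8 in titled GFP- (0.096 centred, 0.079 quantile). The odor minus vehicle fraction difference of Hes1 was -0.030 (-0.039 centred, -0.029 quantile), and Cbr2 in titled GFP+ had -0.013 with quantile normalization. Leaving out 1 library moved odor minus vehicle in titled GFP+ to between -0.28 and 1.33 for Krt18, -0.95 and 0.42 for Notch2, -0.21 and 0.026 for Hes1, -0.29 and 0.74 for Cbr2, -0.11 and 0.52 for Ermn, and -0.079 and 0.43 for Muc2. In titled GFP- the ranges were -0.87 to 0.29 for Krt8, -1.34 to 0.053 for Krt18, -1.01 to 0.0056 for Sox2, -0.20 to 0.15 for Ermn and -0.10 to 0.26 for Muc2. For the fraction difference between treatments they were -0.078 to 2.37 for Krt18, -1.30 to 0.27 for Notch2, -0.10 to 0.18 for Hes1, -0.072 to 0.58 for Ermn and -0.14 to 0.37 for Muc2. The odor fraction difference of Muc2 ran from -0.32 to 0.14 and the vehicle fraction difference of Cbr2 from -0.34 to 0.46. The causes were not tested. Of the members' differences under all alternatives, 1476 kept sign and call, 94 gained a call, 25 lost it and 121 turned sign. The number of arrays and signals near background for Hes1 and Notch2 limit what can be seen.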
